A study of Papilio xuthus with 16 samples.

Results

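The 10 sarcomere genes of the swallowtail butterfly Papilio xuthus were followed in RNA from pieces of larval epidermis. They are myosin heavy chain (Px-0068), myosin light chain 1 (Px-0027), myosin light chain 2 (Px-0029), paramyosin (Px-0154), Myofilin (Px-0143), Tropomyosin 1 (Px-0032), Tropomyosin 2 (Px-0050), troponin I (Px-0045), troponin T (Px-0040) and troponin C (Px-0057). They were taken by gene number from the gene list of the study, and every probe whose name begins with the sequence identifier given there for that gene was used. This gave 68 of the 8697 probes designed for P. xuthus, and 10 of its 3380 sequences, with 2 to 13 probes per gene.

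The sarcomere is the contractile unit of striated muscle. Its thick filament is built from myosin, whose heavy chain carries the motor and whose light chains sit on the neck of the motor, and in insects it also holds paramyosin in its core and Myofilin, a thick filament protein known from Drosophila. The thin filament is an actin polymer along which tropomyosin lies, and the troponin complex on it switches contraction on: troponin C binds calcium, troponin I inhibits, and troponin T ties the complex to tropomyosin. In a caterpillar the body-wall muscles attach to the inner face of the epidermis, so a dissected piece of skin can carry muscle with it. The methods describe removal of attached muscle and fat body for the cDNA library and for in situ hybridization, and do not repeat it for the pieces hybridized to the arrays.

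Each of 16 arrays with 2 colours compared a pale piece of epidermis, labelled with Cy3, with a marked piece labelled with Cy5, with 400 ng of total RNA for each dye. The 6 mimetic arrays set white epidermis (abdominal segments 2 to 4) against black epidermis (abdominal segments 4 and 5) of the third instar, at the intermolt (day 2) and during the molt, with hours counted from head capsule slippage (0, 4, 8, 11 and 16 h), the step in which the old head capsule slides off the new head. The 5 eyespot arrays set green thoracic epidermis (thoracic segment 2) against the eyespot (thoracic segment 3) of the fourth instar, and the 5 V-shaped arrays set green abdominal epidermis (abdominal segments 3 and 4) against the V-shaped marking (abdominal segments 4 and 5), each at the intermolt (day 2) and at 1, 4, 10 and 13 h. The titles of all 10 fourth-instar arrays name the mimetic pattern, and their tissue labels, which were used here, name the cryptic one. Each comparison has 1 array per stage and no dye swap, so stages stood in for replicates, every p measures only the spread between stages, and a dye bias cannot be told apart from the region. Neither the number of larvae in a piece nor separate animals are given by the labels. In such bulk RNA, fewer muscle cells and less RNA per muscle cell cannot be told apart.

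The members were read well. No member spot was saturated, and 7 of the 1088 member spots carried the scanner software's outlier mark and were left out. All 10 genes had a probe well above background in both channels of all 16 arrays, as did 2454 of all 3380 sequences. Of 8 epidermis and cuticle genes, 7 were well above background in both channels of all 16 arrays and an obstructor-A gene (Px-0376) on 15. Since most sequences were read this well, that is no check of the tissue label. The segment labels could not be checked either: abdominal A (Px-4026) was well above background on 3 arrays and ultrabithorax (Px-4070) on 9. The arrays lay on 2 slides of 8 arrays each. Slide 1 held the mimetic arrays of 8 and 11 h and the fourth-instar arrays of 4, 10 and 13 h, and slide 2 held the others.

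Stretches of 3 members, from the probes that the study designed, show what kind of sequence the arrays read. Which probe number on the array each of them carries was not settled. They are the coding stretch of a myosin light chain, a stretch that separates the tropomyosins, and the end of the troponin C reading frame, with capitals marking, in Tropomyosin 1, the codons of the residues that differ from Tropomyosin 2 and, in troponin C, the stop codon. The probe of Tropomyosin 1 spans 19 whole codons from residue 223 in both proteins, of which 5 encode a residue that differs between the tropomyosins and 14 a shared one. How far a probe of one tropomyosin also reads the other was not tested.
myosin light chain 2: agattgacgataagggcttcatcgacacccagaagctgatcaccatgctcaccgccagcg
Tropomyosin 1: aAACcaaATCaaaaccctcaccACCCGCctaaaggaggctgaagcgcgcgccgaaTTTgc
troponin C: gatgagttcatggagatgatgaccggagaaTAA

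The ratio of marked over pale epidermis is given as log2 of the Cy5 over the Cy3 signal, averaged over the probes of a gene, so that a value below 0 is a lower signal in the marked piece. In the third instar the sign of the 10 genes turned with the stage. At the intermolt all 10 were higher in black than in white epidermis, with a median log2 ratio of 0.62 and a range of 0.40 to 0.84, and 6 of 10 were higher by over 1.5-fold, against 4.41% of all sequences. At 0, 4, 8 and 11 h all 10 were lower in black epidermis, and at 16 h the median was -0.03 with 5 of 10 below 0 and none past 1.5-fold, where 5% of all sequences were lower and 4.62% higher by that much. The whole set of genes therefore moved from one side to the other between the intermolt and 0 h after head capsule slippage.

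The lowest ratios of the sarcomere genes came at 11 h. All 10 were then lower in black epidermis by over 1.5-fold, against 11.1% of all sequences, with a median of -1.20, which is 2.30-fold lower, and a range of -1.57 to -0.98. At 0 h the median was -0.63 and 6 of 10 were lower by over 1.5-fold (5.59% of all sequences), at 4 h it was -0.67 and 6 of 10 (7.84%), and at 8 h it was -0.47 and 2 of 10 (3.52%). The median over all sequences stayed between -0.06 and -0.00 on the 16 arrays. With 1 array a stage, these counts describe single hybridizations and have no replicate check.

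Among the thick filament genes, myosin heavy chain, the motor protein itself, had log2 ratios of 0.71 at the intermolt, -0.64 at 0 h, -0.76 at 4 h, -0.56 at 8 h, -1.03 at 11 h and -0.08 at 16 h. Paramyosin, the core protein, ran almost beside it, from 0.65 at the intermolt to -1.03 at 11 h. These 2 genes had the highest correlation of any pair of members, as given further on. Myosin light chain 2, whose Drosophila counterpart is the regulatory light chain, had the highest intermolt ratio of all 10 genes, 0.84, and reached -1.22 at 11 h. Myofilin had the smallest intermolt ratio, 0.40, and one of the lowest at 11 h, -1.47. Myosin light chain 1 had a median of -0.36 over the 6 stages, a lowest value of -0.98 and a highest of 0.53.

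Among the thin filament genes, troponin I, the inhibitory subunit, had log2 ratios of 0.50 at the intermolt, -0.86 at 0 h, -0.74 at 4 h, -0.60 at 8 h, -1.57 at 11 h and -0.16 at 16 h. Its value at 11 h was the lowest of the 160 gene and array values. Troponin T, the subunit that binds tropomyosin, ran from 0.76 at the intermolt to -1.46 at 11 h, and troponin C, the calcium sensor, from 0.75 to -1.26. Tropomyosin 1 and Tropomyosin 2 stayed close to each other, at 0.54 and 0.60 at the intermolt and at -1.12 and -1.19 at 11 h. In every one of the 10 genes the intermolt array was the highest of the 6 and the 11 h array the lowest.

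**Figure D1:**
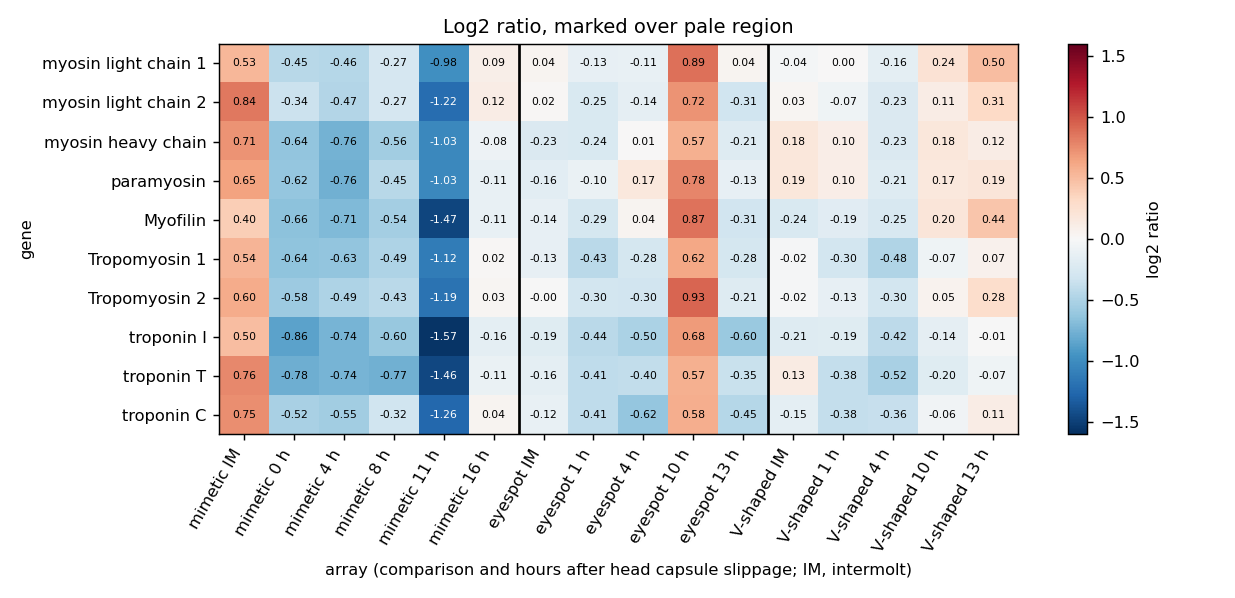
Log2 ratio of marked over pale epidermis for the 10 sarcomere genes (vertical axis) on each of the 16 arrays (horizontal axis), with red above 0, blue below 0 and the value printed in each cell. The mimetic column of 11 h is the darkest blue, from -1.57 to -0.98, and the columns of the mimetic intermolt and of the eyespot at 10 h are red throughout.

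Averaged over the 6 third-instar stages, no sarcomere gene passed the test between black and white epidermis. The mean log2 ratios were all below 0, from -0.57 to -0.22, with a median of -0.39 beside -0.02 over all sequences. The lowest was that of troponin I, -0.57 ± 0.20 (SE, mean of 6 stages), with a Benjamini-Hochberg adjusted p of 0.14 in limma. The adjusted p of the 10 genes lay between 0.14 and 0.57. In all tests of the ratio limma estimated the spread of a gene over the 16 arrays of all comparisons together. This SE therefore does not rest on the 6 stages alone, over which the SD of troponin I was 0.70. Of all 3380 sequences, 72 (2.13%) passed. At an unadjusted p under 0.05 there were 6 of the 10 genes and 19.4% of all sequences. All 68 probes of the members had a mean below 0. Without the intermolt array, 4 genes passed (myosin heavy chain, paramyosin, troponin I and troponin T), with a lowest adjusted p of 0.023 in limma and a median log2 ratio of -0.58, so that 1 array decided this count. In that fit 115 of 3380 sequences (3.40%) passed. Within slide 1 (8 and 11 h) the median of the members was -0.80, and within slide 2 (intermolt, 0, 4 and 16 h) it was -0.18.

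In the fourth instar the medians of the sarcomere genes lay between -0.29 and 0.15 on 9 of the 10 arrays. On the remaining one, the eyespot array of 10 h, all 10 genes were higher in the eyespot, with a median log2 ratio of 0.70, which is 1.63-fold, and a range of 0.57 to 0.93, and 7 of 10 were higher by over 1.5-fold, against 8.14% of all sequences. On the other eyespot arrays the medians were -0.13 at the intermolt, -0.29 at 1 h, -0.21 at 4 h and -0.29 at 13 h. All 10 genes were below 0 at 1 h, and the genes past 1.5-fold were 1 at 4 h, troponin C at -0.62, and 1 at 13 h, troponin I at -0.60, where 10.8% and 11.8% of all sequences were lower by that much. No gene was lower by over 1.5-fold at the intermolt or at 1 h, against 6.98% and 12.2%.

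Tropomyosin 2 had the highest ratio of the 10 h eyespot array, 0.93, after 0.00 at the intermolt, -0.30 at 1 h and -0.30 at 4 h, and before -0.21 at 13 h. Myosin light chain 1 had 0.04, -0.13, -0.11, 0.89 and 0.04 in the same order of stages. In troponin T the values were -0.16, -0.41, -0.40, 0.57 and -0.35. For each of these genes the 10 h value stood above the other 4 by more than those 4 differed among themselves. Averaged over the 5 stages, 0 of 10 genes passed between eyespot and thoracic green epidermis (107 of 3380 sequences, 3.17%, did), with a median of -0.01 and adjusted p of 0.63 to 0.99 in limma. At an unadjusted p under 0.05 there were also 0 of 10, and 19.1% of all sequences.

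On the V-shaped arrays the ratios of the sarcomere genes were small. No gene was past 1.5-fold on any of the 5 arrays, where 12.2%, 25.1%, 16.4%, 10.7% and 19.7% of all sequences were past it in either direction at the intermolt and 1, 4, 10 and 13 h. The medians were -0.02 at the intermolt, -0.16 at 1 h, -0.28 at 4 h, 0.08 at 10 h and 0.15 at 13 h, and at 4 h all 10 genes lay below 0, between -0.52 and -0.16. Myosin light chain 1 had the highest value, 0.50 at 13 h, and troponin T the lowest, -0.52 at 4 h. Averaged over stages, 0 of 10 genes passed between the V-shaped marking and abdominal green epidermis (50 of 3380 sequences, 1.48%, did), with a median of -0.02 and adjusted p of 0.71 to 0.99 in limma, and 0 of 10 had an unadjusted p under 0.05, against 15.8% of all sequences. The eyespot effect minus the V-shaped effect had a median of 0.03, and 0 of 10 genes and 0 of 3380 sequences (0%) passed its test, with 0 of 10 and 177 sequences (5.24%) at an unadjusted p under 0.05. Its standard errors were 0.26 to 0.32.

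In all, the 10 genes were together below 0 on 6 of the 16 arrays, together above 0 on 2, and of both signs on 8.

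The channels were then read one by one. Here the log2 signal of each gene was set against the median of all P. xuthus sequences in the same channel, and the median over the 10 genes was followed. In white epidermis it was 6.53 at the intermolt, 6.81 at 0 h, 6.89 at 4 h, 7.56 at 8 h, 8.08 at 11 h and 7.11 at 16 h. In black epidermis it was 7.00, 6.08, 6.28, 7.12, 6.79 and 7.07 in the same order. The white piece thus had its highest value at 11 h, when the black piece stood near its middle, and the black piece had its lowest values at 0 and 4 h. The 8 and 11 h arrays were those of slide 1, and the part of the slide in these levels was not tested beyond the fit with slide as a block.

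On the eyespot arrays the thoracic green piece had medians of 6.36, 5.22, 5.62, 5.95 and 6.78 at the intermolt and 1, 4, 10 and 13 h, and the eyespot had 6.25, 4.87, 5.32, 6.60 and 6.46. Both thoracic pieces were lowest at 1 h, and at 10 h the eyespot was the higher of the pair. The abdominal green piece had 7.15, 6.28, 7.44, 6.75 and 7.10, and the V-shaped marking 7.13, 5.95, 7.02, 6.74 and 7.10. In both fourth-instar comparisons the median of the members was thus lowest at 1 h and stood near or above its intermolt value at 13 h. Single genes departed from it. Paramyosin was lowest at 4 h in both thoracic pieces, at 3.05 in green epidermis and 3.25 in the eyespot, and at 13 h the V-shaped marking had 3.81 for myosin heavy chain and 5.02 for paramyosin, against 4.76 and 5.83 at the intermolt.

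**Figure D2:**
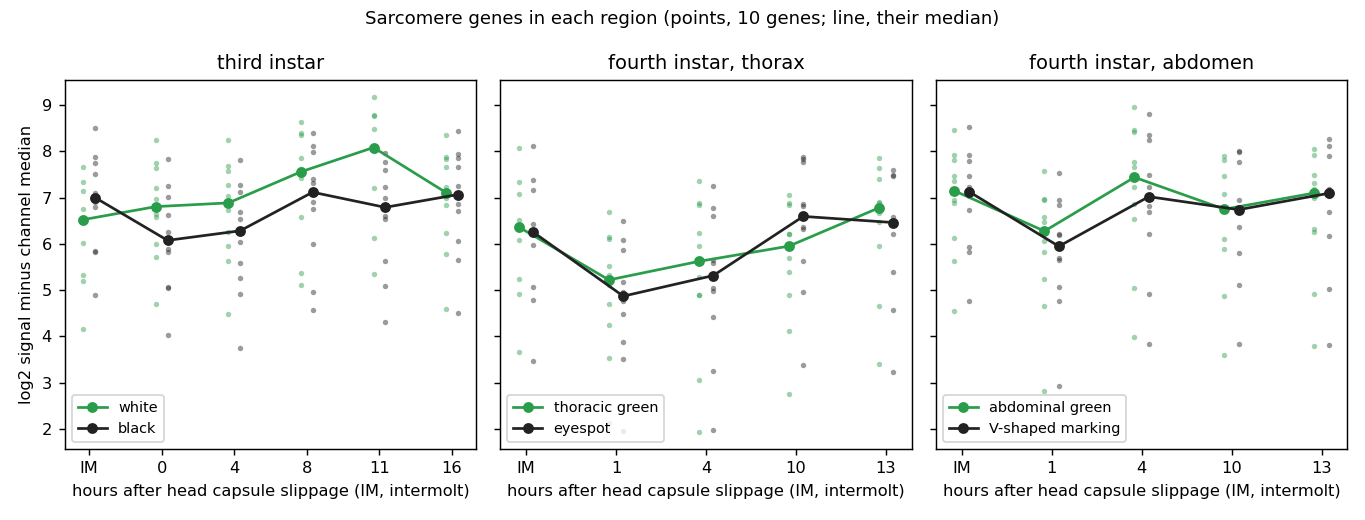
Log2 signal of the 10 sarcomere genes (points) and their median (line) above the median of all sequences in the same channel, by hours after head capsule slippage, for the pale piece (green) and the marked piece (black) of each comparison. The lines part most at 11 h in the third instar, 8.08 in white against 6.79 in black, and lie closest in the abdomen of the fourth instar.

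The level of a gene on an array is the mean of its log2 signals in both channels. It was compared across arrays in 1 limma model with terms for the instar, the intermolt, the thoracic segments and the hours after head capsule slippage. The deposited signals were not scaled between arrays, and the median of all sequences shifts with some of these terms, so each difference is also given relative to it. That median was 0.14 higher on thoracic than on abdominal arrays, 0.32 lower in the fourth than in the third instar as fitted, 0.19 higher at the intermolt, and lower by 0.23 per 10 h after head capsule slippage. With each channel scaled to its 75th percentile these shifts were -0.01, -0.03, 0.23 and 0.07.

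The members' levels on the thoracic arrays stood below those on the abdominal arrays of the fourth instar. All 10 fitted differences were below 0, from -1.03 to -0.66 on the log2 scale, with a median of -0.79, or -0.92 relative to all sequences. All 10 had an unadjusted p under 0.05, from 0.0036 to 0.032 in limma, against 61 of 3380 sequences (1.8%) that were lower at that p. None passed after Benjamini-Hochberg adjustment over all sequences, with adjusted p of 0.95 to 1.00 in limma, and neither did any of the 3380 sequences (0%), of which 79 (2.34%) had an unadjusted p under 0.05. With the matched stages as a block, over the 10 fourth-instar arrays alone, the differences were the same, all 10 members again had an unadjusted p under 0.05, and their adjusted p in limma was 0.083 to 0.20. In that fit 576 of all sequences (17.0%) had an unadjusted p under 0.05, 209 of them (6.18% of all) lower on the thoracic arrays, and 3 passed after adjustment. By the adjusted p, then, no member passed in either fit, which does not show that the levels were alike.

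The sign was the same at each matched stage. All 10 genes were lower on the thoracic array at all 5 stages, which held for 5.33% of the 3375 sequences measured at all 5. The median difference was -0.93 at the intermolt, -0.74 at 1 h, -1.58 at 4 h, -0.43 at 10 h and -0.37 at 13 h. Tropomyosin 1, the member with the largest mean difference, had levels of 15.34, 14.56, 13.96, 14.88 and 15.44 on the thoracic arrays and 16.59, 15.49, 15.71, 15.55 and 16.00 on the abdominal ones, at the intermolt and 1, 4, 10 and 13 h. Its thoracic values all lay below its abdominal values, and its difference was -1.03 ± 0.29 (SE, adjusted p 0.95 in limma), or 2.04-fold.

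Myosin heavy chain had thoracic levels of 12.56, 11.46, 10.75, 11.92 and 12.21 and abdominal levels of 13.77, 12.02, 12.60, 12.53 and 12.61 at those stages. Its groups overlapped, and within each stage the thoracic array was the lower. The abdominal value of 1 h holds 1 low spot of 1 of its 12 probes. Without that spot, left out after the values were seen, it was 12.68 in place of 12.02, the difference at 1 h was -1.22 in place of -0.55, and the fitted difference was -1.06 in place of -0.93, which is then the largest of the 10. The groups still overlapped, with 12.53 as the lowest abdominal and 12.56 as the highest thoracic level. Troponin C had thoracic levels of 15.47, 14.77, 14.75, 15.39 and 15.58 and abdominal levels of 16.40, 15.55, 16.32, 15.56 and 15.83, so that its stages of 10 and 13 h differed by only 0.17 and 0.25. Myofilin had the smallest difference at any stage, 0.08 lower on the thoracic array of 13 h. The other 6 genes differed by 0.66 to 0.89 on average. Within slide 1 (4, 10 and 13 h) the median difference of the members was -0.80 and within slide 2 (intermolt and 1 h) it was -0.87.

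**Figure D3:**
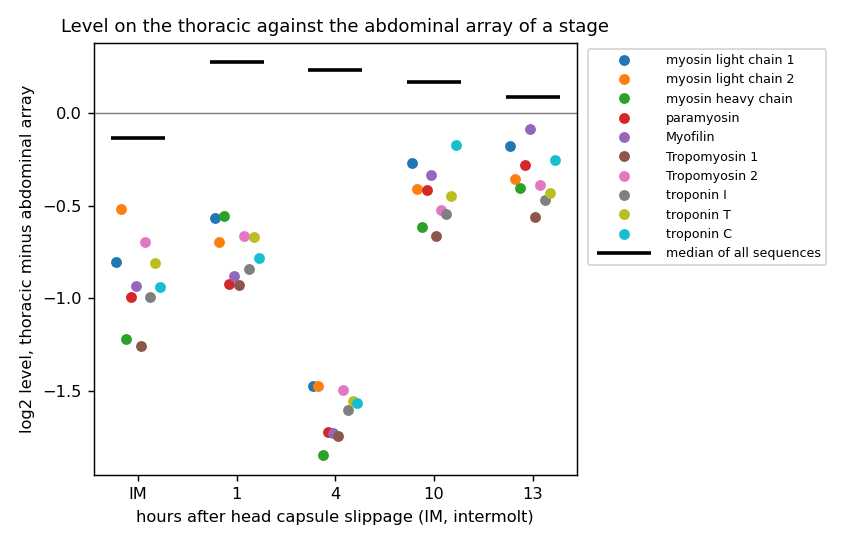
Log2 level on the eyespot (thoracic) array minus that on the V-shaped (abdominal) array of the same stage of the fourth instar, by hours after head capsule slippage, for each of the 10 genes (points) and for the median of all sequences (bar). Every point lies below 0, lowest at 4 h, while the bars lie between -0.13 and 0.28.

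Between the instars part of the members' median shift in the unscaled levels was that of all sequences. The fitted differences of the level, the fourth minus the third instar, were all below 0, from -1.09 to -0.13 with a median of -0.51, or -0.19 relative to all sequences. None passed in limma, and 41 of 3380 sequences (1.21%) did. At an unadjusted p under 0.05 there were 2 of 10 and 22.6% of all sequences. Myosin heavy chain differed most. Its level in the third instar was 13.42 at the lowest, 13.68 at the median and 14.28 at the highest of 6 arrays, and 12.71 ± 0.65 (SD, n = 5) on the abdominal arrays of the fourth, with 1 of those at 13.77 inside the third-instar range. The difference was -1.09 ± 0.30 (SE, adjusted p 0.078 in limma), or 2.12-fold lower. It was -0.76 relative to all sequences. Over its 12 probes the difference ran from -2.12 to -0.18. Without the low spot of the V-shaped array of 1 h the abdominal mean was 12.84 ± 0.53 (SD, n = 5) and the difference -0.96, with an adjusted p of 0.098 in limma. Without the third-instar intermolt array, with all spots kept, it passed, with an adjusted p of 0.032 in limma, and the sequences that passed went from 41 to 230 (6.80%).

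Paramyosin differed by -0.72 ± 0.27 (SE, adjusted p 0.15 in limma) and Tropomyosin 1 by -0.57 ± 0.28 (SE, adjusted p 0.25). Tropomyosin 2, troponin I and troponin T had differences of -0.21, -0.31 and -0.13, which were 0.11, 0.01 and 0.19 relative to all sequences, so their sign turned with the scaling. In both slides the abdominal arrays of the fourth instar were the lower, with a median over the members of -1.03 in slide 1, where all sequences shifted by -0.58, and of -0.17 in slide 2, where all sequences shifted by 0.01.

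Between intermolt and molt, the median difference of the sarcomere genes was 0.28, or 0.09 relative to all sequences, with 0 of 10 genes past the threshold in limma, whereas 1435 of 3380 sequences (42.5%) passed. At an unadjusted p under 0.05 there were 2 of 10, myosin heavy chain and paramyosin, and 52.1% of all sequences. Myosin heavy chain was 0.73 ± 0.32 higher at the intermolt (SE, adjusted p 0.079 in limma) and paramyosin 0.65 ± 0.29 higher (SE, adjusted p 0.083 in limma). Troponin I and troponin T had differences of 0.03 each. All 3 intermolt arrays lay on slide 2. Within that slide the median difference of the members was 0.34, where all sequences shifted by 0.13. Leaving out the third-instar intermolt array gave 2 members past the threshold, where 1296 of all sequences (38.3%) passed.

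The slopes of the members' levels with the hours after head capsule slippage were all above 0, from 0.18 to 0.66 per 10 h with a median of 0.47, against -0.23 over all sequences. Troponin T alone passed, with a slope of 0.66 ± 0.25 (SE, adjusted p 0.048 in limma), where 480 of 3380 sequences (14.2%) passed with a slope above 0 and 39.3% passed in either direction. At an unadjusted p under 0.05 there were 3 of 10 and 48.8% of all sequences. In the third instar its level was 15.51 at 0 h, 15.68 at 4 h, 16.52 at 8 h, 16.78 at 11 h and 15.87 at 16 h, so that the 16 h value lay below those of 8 and 11 h. On the thoracic arrays it was 14.36, 14.57, 15.38 and 15.61 at 1, 4, 10 and 13 h, and on the abdominal arrays 15.03, 16.13, 15.82 and 16.05.

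The call of troponin T was not firm. It was lost with slide as a block (0 of 10 genes passed) and on leaving out any of 12 arrays. Leaving out the third-instar array of 16 h gave 4 genes, where 17.8% of all sequences passed with a slope above 0, and scaling to the 75th percentile gave 7, where 21.5% did. Myofilin, Tropomyosin 1, Tropomyosin 2 and troponin I had slopes of 0.56, 0.58, 0.52 and 0.53, with adjusted p of 0.085 to 0.12 in limma.

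The members varied together from array to array. Over the 16 arrays the 45 pairs of members had a median Pearson r of 0.94 for the log2 ratio, from 0.84 between paramyosin and troponin C to 0.99 between myosin heavy chain and paramyosin. The median over all pairs of 3375 sequences was 0.00. All 45 pairs had an r over 0.8, which 0.328% of all pairs of sequences had. For the level the median r was 0.93, from 0.73 between paramyosin and troponin T to 0.99 between Tropomyosin 2 and troponin T, with 0.05 over all pairs. These are descriptions with no test, since genes on the same arrays share the array, the stage, the dye and the dissected piece.

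No single array decided the median of the co-variation. Leaving out each array in turn gave medians of 0.92 to 0.95 for the ratio and 0.91 to 0.94 for the level. Within the 6 mimetic arrays the median r of the ratio was 0.99, within the 5 eyespot arrays 0.95 and within the 5 V-shaped arrays, where the ratios were small, 0.83. For the level the 3 values were 0.93, 0.90 and 0.76. Single pairs were lower within these few arrays. The lowest r of the ratio was 0.95, 0.77 and 0.30 in the same order, and that of the level 0.33, 0.68 and 0.20. Over all 16 arrays the lowest r of the level were those of paramyosin, a thick filament protein, with the thin filament genes troponin T and Tropomyosin 2 (0.73 and 0.78).

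**Figure D4:**
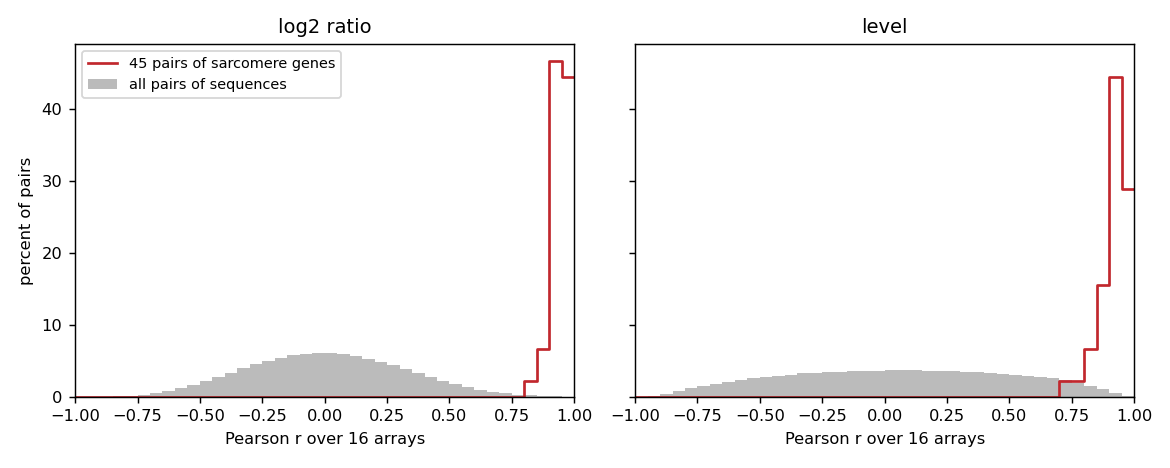
Percent of pairs (vertical axis) by Pearson r over the 16 arrays (horizontal axis) for the log2 ratio and for the level, with the 45 pairs of sarcomere genes as a red line and all pairs of sequences as grey bars. The pairs of sarcomere genes run from 0.84 to 0.99 for the ratio and from 0.73 to 0.99 for the level, while all pairs centre near 0.

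Other genes followed the members in part. The members were set beside the 2444 other sequences well above background in both channels of all 16 arrays. The 10 whose ratio was most like the median ratio of the members had r of 0.92 to 0.99. Of these, 3 carry a gene number: Px-0358 (similar to CG4239, r 0.96), calcium ATPase (Px-0242, r 0.96), the pump that clears calcium from the muscle cytoplasm in other animals, and Z band alternatively spliced PDZ-motif protein 66 (Px-0125, r 0.94), a protein of the Z disc at which sarcomeres join. The other 7 had no gene number in the tables used here. For the level, calcium ATPase (r 0.96) and the Z band protein (r 0.90) were again among the 10 most alike, with 8 sequences that carry no gene number.

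The 6 other muscle genes of the list followed the members unevenly. Calcium ATPase and the Z band protein had the r given above, arginine kinase (Px-0181), which buffers ATP in insect muscle, had r of 0.79, and muscular protein 20 (Px-0102), muscle protein 20 (Px-0206) and muscle specific protein 300 (Px-4062) had 0.67, 0.54 and 0.20. For the level the r of these 4 were 0.48, 0.34, 0.50 and 0.22. Among themselves the 6 had a median r of 0.50 for the ratio and 0.32 for the level over 15 pairs. On the mimetic intermolt array, where the members had a median ratio of 0.62, these 6 genes had 0.17. There 2 of 6 were below 0 and 1 was higher by over 1.5-fold, against 4.41% of all sequences. On the mimetic array of 11 h their median ratio was -0.58, with 3 of 6 lower by over 1.5-fold against 11.1% of all sequences. On the eyespot array of 10 h it was 0.60, with 3 of 6 higher by that much against 8.14%. Between thoracic and abdominal arrays their median difference was -0.78, with 5 of 6 below 0, where 1020 of 3380 sequences were. In limma 0 of 6 passed the threshold, as did 0 of all sequences. At an unadjusted p under 0.05 there were 3 of 6, against 2.34% of all sequences.

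In the time course the slopes of these 6 genes ran from -0.80 to 2.37 per 10 h after head capsule slippage. Muscular protein 20 rose by 2.37 ± 0.40 per 10 h after head capsule slippage (SE, adjusted p 0.00051 in limma) and was 2.24 ± 0.47 higher at the intermolt (SE, adjusted p 0.0030 in limma). Muscle specific protein 300, a giant protein that ties nuclei to the cytoskeleton, rose by 1.92 ± 0.27 per 10 h (SE, adjusted p 0.00013 in limma). Muscle protein 20 rose by 1.99 ± 0.53 per 10 h (SE, adjusted p 0.0088 in limma), so 3 of 6 passed upwards, where 14.2% of all sequences did. The slopes of the other 3 did not pass, at 0.63 for the Z band protein, 0.57 for calcium ATPase and -0.80 for arginine kinase. At the intermolt 3 of 6 were higher and passed, muscular protein 20, muscle protein 20 and arginine kinase. Of all 3380 sequences, 892 were higher and passed, and 42.5% passed in either direction. The differences between these slopes and those of the members were not tested.

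Other lists of genes, not all of them marking a tissue, were measured on the same arrays. Of the 5 other cytoskeleton genes, actin-depolymerizing factor 1 (Px-0198) had the highest r with the median of the members, 0.76 for the ratio and 0.53 for the level. The range of the 5 was -0.09 to 0.76 for the ratio, with beta-tubulin (Px-0214) the lowest, and -0.20 to 0.53 for the level. Of the 9 energy metabolism genes, ATP synthase-beta (Px-0234) had an r of 0.92 with the median ratio of the members, and the range of the 9 was 0.32 to 0.92. For the level its r was 0.39, and the range of the 9 was 0.18 to 0.86, with fructose-bisphosphate aldolase (Px-0273), an enzyme of glycolysis, the highest. The 8 epidermis and cuticle genes had r of -0.61 to -0.04 for the ratio and -0.18 to 0.12 for the level. On the mimetic array of 11 h their median ratio was 0.69 and on the eyespot array of 10 h it was -0.59. All sequences had medians of -0.03 and -0.01 there. Both medians of the 8 genes had the opposite sign to those of the members. That was not so on every array. At the mimetic intermolt the medians were 0.06 for the 8 genes and 0.62 for the members. At 13 h on the eyespot array they were -0.16 and -0.29. The list holds laccase2 (Px-0292), which the study describes as strongly expressed in black markings, so it is not neutral to the marking. Of the fat body and hemolymph genes, larval serum protein 1 gamma (Px-0099), the defining one, was well above background on 10 of 16 arrays. It and ferritin 1 heavy chain homologue (Px-0341) had r of 0.05 and 0.12 for the ratio, and -0.00 and 0.29 for the level. Their mean level, relative to the median of all sequences, ranged from -0.40 to 3.20 on the mimetic, -1.05 to 5.51 on the eyespot and -0.86 to 5.71 on the V-shaped arrays. The basement membrane genes collagen type IV (Px-0251) and sparc (Px-0101) had r of 0.26 and 0.25 for the ratio, and 0.30 and 0.39 for the level. The part of the amount of attached tissue, or of the sharing of RNA between tissues in a piece, in the ratios of the members was not tested.

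The probes of a gene mostly had the same sign. In the thoracic against abdominal difference 67 of 68 probes lay below 0. The exception, a myosin heavy chain probe, rests on 1 low spot of the V-shaped array of 1 h that carries no outlier mark. Between the instars 60 of 68 probes lay below 0, in levels not scaled between arrays. The 8 above it were 5 of troponin T, 2 of Tropomyosin 2 and 1 of troponin I. Probes of myosin light chain 2 ran from -0.98 to -0.06 and of Tropomyosin 2 from -0.53 to 0.02. All sequences shifted by -0.32. Dimmer probes tended to differ more. Over the 68 probes this difference had an r of 0.62 with the mean level. For thorax against abdomen it was 0.68 and for the intermolt -0.67.

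In troponin T the probes fell into sets of unlike sign. Of its 13 probes, 5 had a higher level in the fourth instar, by 0.31 to 0.64, and the other 8 a lower one, by -0.92 to -0.36. The same 5 probes were lower at the intermolt (-0.37 to -0.15), where the other 8 were higher (0.11 to 0.70), and they differed less between thorax and abdomen (-0.39 to -0.32, against -1.28 to -0.91). Both sets had slopes above 0 after head capsule slippage, with medians of 0.61 and 0.68 per 10 h. Over the 16 arrays, with each array's median taken off, the level of the probes correlated with a median r of 0.98 within the 5 and 0.99 within the 8, and of 0.49 between the sets. The sets were formed after these values were seen, so no test was made. No single one of the 5 passed between the instars, with adjusted p of 0.22 to 0.50 in limma over all probes. The level of troponin T as given here averages both sets.

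**Figure D5:**
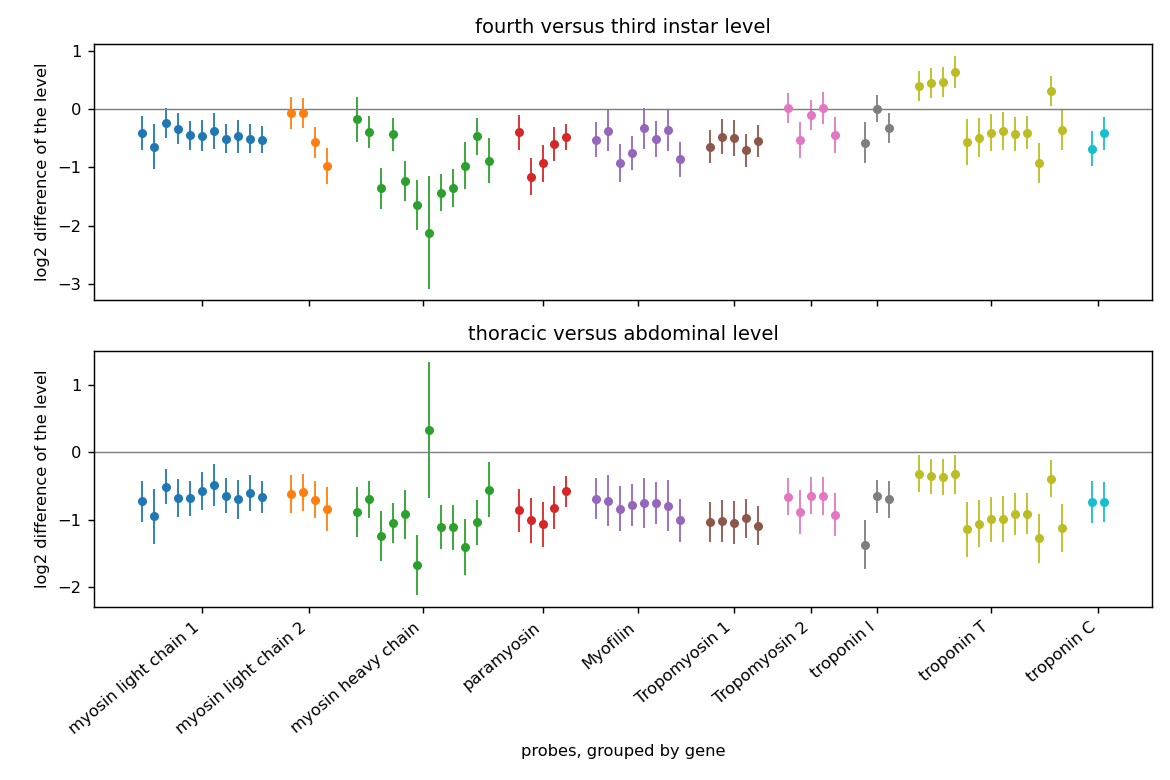
Log2 difference of the level, with its standard error, for each of the 68 probes grouped by gene, between the fourth and the third instar (upper panel) and between thoracic and abdominal arrays (lower panel). In the upper panel 5 troponin T probes lie between 0.31 and 0.64 while the other 8 lie below -0.35, and in the lower panel 67 of 68 probes lie below 0.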

How the data were processed

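Larval epidermis was measured on 16 arrays with 2 colours. The authors scanned them with Agilent Feature Extraction and deposited, for each spot, processed signal intensities of both dyes, from which Feature Extraction had taken off the background and balanced the dyes of each array. Arrays were not brought to a common scale. They also deposited a series table of log10 ratios of Cy5 over Cy3, which was used as an alternative. No column of the files holds their comparisons, and the arrays' number, with 1 per stage, limits the precision. Control spots and spots marked as outliers were left out. Log2 ratios and levels were averaged over the probes of a gene, each probe being centred on its own mean so that a missing spot did not shift the average. Tests used limma 3.58.1 in R 4.3.3 over all 3380 P. xuthus sequences, with Benjamini-Hochberg adjustment and a threshold of 0.05. They were tested on simulated data. Tables and figures were made with Python 3.11.15, pandas 2.3.3, numpy 2.4.6 and matplotlib 3.10.9. Named were the members, the genes of the tissue lists, and the 10 sequences most like the members in ratio and in level. The members and lists were chosen with earlier results of these data known, so no list is independent evidence. Gene numbers were at hand for 470 sequences. Genome positions were not used here. Alternatives were other scalings, normexp with an offset of 50, single probes, dim probes left out, slide and stage as blocks, and each array left out. A planned reading through P. polytes probes was not run, because their names could not be paired with genes in the tables used here.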

Additional observations from a re-analysis of the deposited data

Results flagged for a closer look

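Dixon's test for 1 far sample, run on the ratio and on the level of each member within each group of arrays (60 tests, of which chance alone marks about 1 in 20), picked out 7 values. On the eyespot arrays the 10 h ratio stood far above the other stages in myosin light chain 1 (0.89), Tropomyosin 1 (0.62), Tropomyosin 2 (0.93) and troponin T (0.57). These genes are not independent of each other, since they share that array. On the V-shaped arrays the 4 h ratio stood far below the other stages in myosin heavy chain (-0.23) and paramyosin (-0.21). The level of Tropomyosin 2 on the V-shaped array of 1 h, 6.92 above the array's median, stood far below its other stages. Whether these single arrays would recur was not tested, as no stage was hybridized again.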

How the results depend on the processing

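No called value changed its sign, though with the processing used above troponin T, in the slope, was the only member called. The 10 thoracic differences stayed below 0 under every scaling, probe rule and left-out array that was run. Leaving out each array in turn gave 0 to 4 called members for black against white epidermis (medians -0.58 to -0.25), 0 to 1 for the instars, 0 to 2 for the intermolt and 0 to 4 for the slope. For the intermolt, 1 member was called with 75th percentile scaling and 3 with normexp. For the slope, 7 were called with 75th percentile scaling and 0 with normexp, with slide as a block, with the median over probes, an alternative chosen after seeing the data, and with each probe by itself, where a gene counted if no fewer of its probes were called than not. Of the 68 single probes, 1 was called for the slope, 6 for the intermolt and 1 between the instars. Leaving out the low myosin heavy chain spot, also chosen after seeing the data, changed no call. With the stage as a replicate block, which pairs the eyespot and V-shaped arrays of a stage, the thoracic difference had a median of -0.79 and a lowest adjusted p of 0.083 in limma, and the eyespot effect minus the V-shaped effect 0.03 and 0.92. It changed no call of a member, and 3 of all sequences were called for the thoracic difference in place of 0. The causes were not tested. Without the P. polytes probes no second reading of the members was made. Over all sequences, other scalings moved the split of higher and lower calls: between instars it was 16 and 25, with 75th percentile scaling 20 and 6, with normexp 11 and 5 and with centring on ribosomal protein genes 14 and 2. At the intermolt 62.2% of the 1435 called were higher, with normexp 76.6% of 1598 and with ribosomal centring 34.2% of 1097. In the slope it was 480 and 850, and with 75th percentile scaling 728 and 655.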
